A study of Homo sapiens with 21 samples.

Results

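The comparison described here is that of APP-V717F mutated SH-SY5Y cells with wild-type SH-SY5Y cells, both kept under vehicle. SH-SY5Y is an established human neuroblastoma line with features of sympathetic neuroblasts that is widely used as a neuron-like model. APP encodes the amyloid precursor protein, and V717F is a substitution in it that is known from familial Alzheimer's disease and lies close to the site cut by gamma-secretase. Gene expression was measured on Affymetrix PrimeView arrays. Of the 21 arrays of the series, 6 belong to this comparison: 3 of the mutated line (APP_DMSO) and 3 of the wild-type line (WT_DMSO), chosen by their titles. Cells of both groups were grown for 3 to 4 days in neurobasal medium with B27, 10 µM retinoic acid and the growth factor BDNF at 50 ng/mL, and then for 72 h in medium with 0.1% DMSO as vehicle. The other arrays carry cells of the same 2 lines treated with AG494, an inhibitor of the EGF receptor kinase, with NOSCA, or (analysed here in wild-type cells only) with PALBO; the last 2 names are those of the labels, and the labels give no doses. Each genotype is 1 line and the labels do not say how the mutated line was made, so that an effect of the mutation and any other difference between the lines cannot be told apart.

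The series comprises 3 independent experiments. Going by the numbers in their titles, arrays were assigned to 3 runs (up to 10, 11 to 20, and above 20), every run holding all 7 groups once, and were paired by run. A value below is a log2 intensity after RMA (robust multi-array average) normalisation, and a difference is the log2 value in APP_DMSO minus that in WT_DMSO, so that a difference of 1 is a 2-fold rise. Where a gene had several probe sets, the brightest on average in the 21 arrays represents it. Levels of different genes are not compared with each other, because probe sets differ in brightness at equal transcript levels. A gene was called higher or lower where limma's moderated test, with the run as a block, gave a Benjamini-Hochberg adjusted p under 0.05 over all 18132 genes tested. Medians of the 21 arrays lay between 7.877 and 8.03. With 3 arrays a group precision is limited, and the table holds no detection call. A gene near background in 1 group, at a log2 level of about 6 or lower, has a measured difference that can understate the true one. In bulk RNA fewer cells of a kind and less RNA per cell cannot be told apart.

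Much of what follows concerns the interferon response. Type I interferons bind a receptor on the cell surface that activates JAK kinases, and these phosphorylate STAT proteins. STAT dimers join IRF9 into a complex that binds a DNA element, the interferon-stimulated response element (ISRE), in the promoters of many genes whose products sense viral RNA, block virus entry and replication, or help to present peptides on MHC class I. The other main thread is bone morphogenetic protein (BMP) signalling, in which ligands such as BMP4 act through SMAD proteins to switch on ID genes and their own inhibitors, and which is known for its part in the making of sympathetic neurons.

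The promoter sequences of interferon genes show this element directly. The stretches below lie upstream of the start of each gene on its own strand, in RefSeq's GRCh38.p14 assembly, and were picked, after the search, from genes of the response that rose and hold the element, so that it can be seen; ISG15 is added as a gene with the same element that did not rise. Capitals mark the ISRE core, which is GAAA, any 2 bases and GAAA again, or the same on the opposite strand (TTTC, any 2 bases, TTTC).
IFIT1 (chr10:89392470-89392549, plus strand): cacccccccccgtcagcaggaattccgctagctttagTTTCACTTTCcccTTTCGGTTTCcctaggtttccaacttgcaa
IFIT3 (chr10:89327821-89327904, plus strand): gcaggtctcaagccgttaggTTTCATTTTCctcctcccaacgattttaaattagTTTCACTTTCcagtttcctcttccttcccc
IFITM1 (chr11:313950-314029, plus strand): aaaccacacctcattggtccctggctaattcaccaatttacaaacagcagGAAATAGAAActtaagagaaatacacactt
IFI6 (chr1:27672256-27672368, minus strand): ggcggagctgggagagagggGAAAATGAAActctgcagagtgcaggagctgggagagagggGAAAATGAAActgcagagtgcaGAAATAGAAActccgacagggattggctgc
BST2 (chr19:17405725-17405804, minus strand): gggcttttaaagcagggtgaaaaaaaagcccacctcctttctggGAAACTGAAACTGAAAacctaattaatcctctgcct
TAP1 (chr6:32853803-32853882, minus strand): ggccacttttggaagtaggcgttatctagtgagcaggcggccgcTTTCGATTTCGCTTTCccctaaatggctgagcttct
DDX60 (chr4:168318776-168318860, minus strand): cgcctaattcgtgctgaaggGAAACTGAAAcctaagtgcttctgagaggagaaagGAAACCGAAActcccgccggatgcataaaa
ISG15 (chr1:1013340-1013419, plus strand): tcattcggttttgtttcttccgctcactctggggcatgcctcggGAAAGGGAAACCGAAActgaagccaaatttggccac

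IFI6 carried 3 matches in this window, IFITM1 1, and the other 6 genes shown 2 each, which overlap in BST2, TAP1 and ISG15. Over the 250 bases before and 50 bases after the start, on both strands, the core occurred in 3.08% of the 14425 tested genes that have a promoter in the table and in 3.65% of all 27305 promoters. It occurred in 22 of the 129 such genes that rose at least 2-fold in APP_DMSO, or 17.1%, and in 2 of the 118 that fell at least 2-fold, or 1.69%. The interferon genes listed below had it in 27 of 52 cases where they rose (51.9%) and in 18 of 37 where they did not pass the test (48.6%), so that the core did not separate the members that rose from the others. Genes called higher outside these lists carried it in 2.34% of cases. OAS1, PSMB9, HERC6, PARP9 and GBP4, which rose as well, had no match in their window. For comparison, the core of the gamma-activated sequence, TTCNNNGAA, occurred in 7.1% of tested genes with a promoter, in 12.4% of the genes that rose at least 2-fold and in 3.39% of those that fell at least 2-fold. The E-box CACGTG was found in 8.82%, 6.98% and 5.08% of the same groups, and the cyclic AMP response element TGACGTCA in 2.66%, 2.33% and 1.69%. A match is a description of the sequence and not evidence of binding.

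In all, 3151 of 18132 genes (17.4%) were called, 1857 of them higher in APP_DMSO (10.2%) and 1294 lower (7.14%). The counts of list members below are to be read beside these shares. The fit without the run block called 1677 genes (942 higher or 5.2%, 735 lower or 4.05%), all of them among the 3151. Most called differences were small: their median size was 0.39, against 0.1 over all genes. A rise of at least 1.5-fold was seen for 448 called genes (2.47% of all) and a fall of that size for 386 (2.13%), at least 2-fold for 162 and 156, at least 4-fold for 39 and 30, and at least 8-fold for 10 and 5. Only IFITM1 rose, and only ELFN1 and CUX2 fell, by at least 16-fold. The 3 arrays of each genotype did not overlap for 81.8% of called genes, against 22.1% of all genes, and the difference had the same sign in 3 of 3 runs for 98.0% of called genes and 43.8% of all. Of the called genes 58.9% were higher, but this split depends on the scaling: it was 50.4% (1573 higher, 1546 lower) after another quantile normalisation and 42.1% (1311 higher, 1800 lower) after centring on array medians. The plot of level against difference shows the large changes in both directions at intermediate mean levels.

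**Figure D1:**
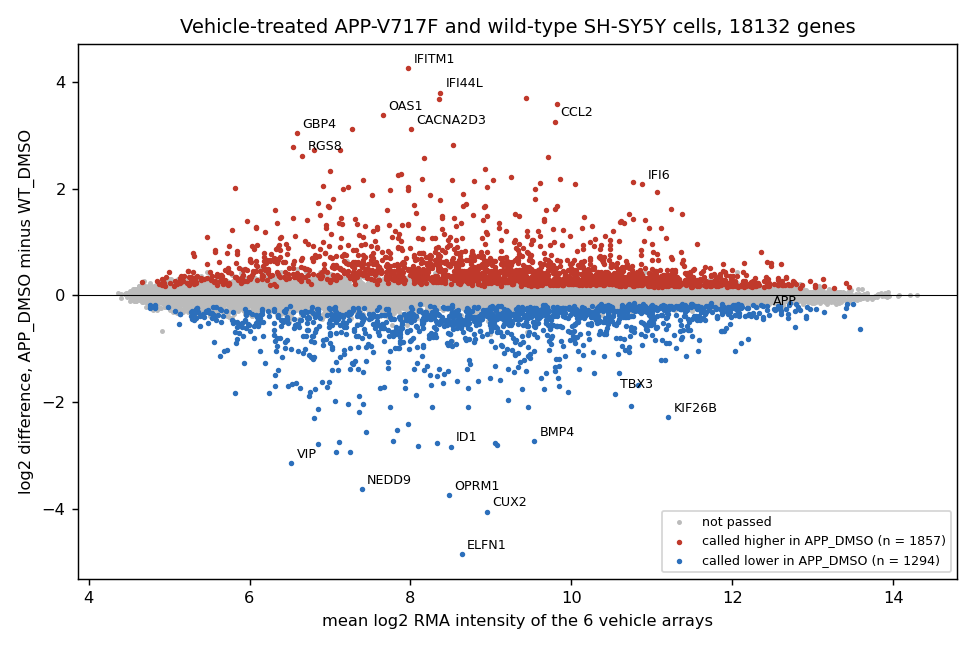
Mean log2 RMA intensity of the 6 vehicle arrays (x) against the log2 difference APP_DMSO minus WT_DMSO (y) for 18132 genes; red and blue points are the 1857 genes called higher and the 1294 called lower, grey points the rest. IFITM1 (4.25) and ELFN1 (-4.85) mark the ends of the range, and APP (-0.28) lies near 0 at the bright end.

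APP itself was abundant in both lines and slightly lower in the mutated one. Its level was 12.26, 12.37 and 12.25 in APP_DMSO, in the order of the runs, and 12.49, 12.61 and 12.61 in WT_DMSO. The groups did not overlap, and the difference was -0.28 (SE 0.07, adjusted p = 0.011). Each of the 13 APP probe sets had a lower mean in the mutated line, 12 of them past the threshold. These probe sets read the same RNA and are not independent. With run 2 left out of all groups, no gene of the APP family list below was called lower. The array reads the amount of transcript and not the mutation, so that it does not check the genotype. Of 36 measured genes of the APP family, its secretases, its sorting receptors and the enzymes that break down amyloid, 4 rose and 4 fell (11.1% each), and 3 and 2 without the run block. The largest change among them was that of SORCS2, a sorting receptor of the VPS10P family, which was at 10.65, 10.62 and 10.75 against 7.56, 8.78 and 9.35, a rise of 2.11 (SE 0.28). ECE1, a metalloprotease that can degrade amyloid, rose by 0.57, the gamma-secretase subunits APH1B and NCSTN by 0.27 and 0.16, and SORCS1 fell by 0.41. Among 32 genes near risk loci for Alzheimer's disease 5 rose (15.6%) and 2 fell (6.25%), against 10.2% and 7.14% of all genes. Their median difference was 0.01. CLU, which encodes the chaperone clusterin, was at 9.61, 9.73 and 9.96 against 7.72, 7.94 and 8.61, a rise of 1.67 (SE 0.10, adjusted p = 2.8e-09); APOE, at a difference of -0.19, did not pass.

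Both lines carried the noradrenergic markers known for SH-SY5Y cells. PHOX2A, HAND2 and ISL1, transcription factors that define this state, lay between 12.07 and 12.74 in all 6 arrays and none of them was called; GATA3 was at 10.57 to 11.03 and STMN2 at 13.07 to 13.21, and both were not called either. DBH, the enzyme that makes noradrenaline, was at 12.9 to 13.04 in APP_DMSO and 13.22 to 13.33 in WT_DMSO. The chromogranins CHGA and CHGB, proteins of dense-core vesicles, rose by 0.59 and 0.63. Markers of other cell types differed in level and in how they moved, and their part in the results was not tested. None of 16 immune markers was called, their mean level was 6.09 to 6.14 in APP_DMSO and 6.1 to 6.16 in WT_DMSO, and the leukocyte marker PTPRC was at 4.89 to 5.13. Of 14 Schwann cell and glial markers, with a mean level of 6.19 to 6.21 against 6.24 to 6.32, S100B alone was called, at -1.01. Of 17 endothelial and fibroblast markers, at a mean of 7.78 to 7.82 against 7.73 to 7.89, DCN rose by 1.55 and COL1A1, PDGFRA and THY1 fell by 1.19, 0.82 and 0.55.

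Genes of the interferon response and of MHC class I presentation rose together. Over 6 lists with 111 measured genes, 57 rose (51.4%, against 10.2% of all genes) and none fell, and 52 rose without the run block. The median difference of the 111 was 0.30, against 0.02 for all genes, and it was 0.18, 0.43 and 0.48 in the 3 runs. Leaving out each of the 6 arrays in turn left 54 to 62 genes higher and at most 1 lower; after centring on array medians 54 were higher and 2 lower.

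The list of effectors, made up of IFIT, IFITM, IFI and MX genes and others, moved most: 21 of 26 rose, with a median of 1.35. IFITM1, a membrane protein that hinders the fusion of viruses with the cell, was at 9.5, 10.44 and 10.37 in APP_DMSO and at 5.83, 5.75 and 5.97 in WT_DMSO. It was near background in every wild-type array and bright in every mutated one, and its difference of 4.25 (SE 0.24, adjusted p = 1.5e-09) was the largest rise of all genes. IFIT1, which binds viral RNA lacking a host cap, was at 9.71, 10.33 and 10.57 against 6.84, 6.28 and 6.43, a rise of 3.68 (SE 0.21). IFI44L and IFI44 rose by 3.79 and 3.70. BST2, or tetherin, which holds budding viruses at the membrane, was at 7.76, 8.59 and 8.14 against 5.78, 5.34 and 5.21, a rise of 2.72 (SE 0.28). IFI6 stood at 11.82, 11.94 and 11.98 against 9.67, 9.89 and 9.95, so that even a gene bright in wild-type cells rose by 2.08 (SE 0.11). Further rises were those of PLSCR1 (2.16), RSAD2, or viperin (2.15), IFIH1, the sensor MDA5 (2.01), IFI27 (2.00), SAMD9L (1.87) and IFITM3 (1.67), next to IFIT3 (1.36), IFIT2 (0.92) and IFIT5 (0.80) from the same family as IFIT1. The 5 members whose representing probe set did not pass were IFITM2 (-0.21), IFI30 (0.31), MX2 (0.28), EPSTI1 (0.06) and MX1, which lay between 5.05 and 5.18 in all 6 arrays. The other probe set of MX2 was called higher (0.58) and that of IFITM2 lower (-0.29).

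The RNA sensors were split between strong rises and genes that did not pass. Of 17 genes of the OAS family and of nucleic acid sensing, 8 rose. OAS1, which makes the second messenger that activates RNase L, was at 9.03, 9.61 and 9.39 against 6.6, 5.79 and 5.52, a rise of 3.37 (SE 0.24), whereas OAS2 (0.09) and OAS3 (0.00) were not called. DDX60, a helicase that aids RIG-I, was at 8.16, 8.55 and 8.75 against 5.74, 5.78 and 5.74, a rise of 2.73 (SE 0.14). RIGI, the RNA helicase sensor itself, rose by 1.68, OASL by 1.26 and EIF2AK2, the kinase PKR, by 1.06. The DNA-sensing genes CGAS (0.01) and STING1 (0.08) were not called. Of the 9 members that did not pass, 6 had both group means under a log2 level of 6.

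Of 22 genes of the ISG15 pathway and of the PARP and TRIM families, 10 rose. PARP9 and its partner DTX3L, a ubiquitin ligase, rose together: PARP9 was at 9.37, 9.37 and 9.62 against 7.13, 6.86 and 6.66 (2.57, SE 0.12), and DTX3L at 10.9, 11.02 and 11.35 against 8.78, 8.92 and 9.29 (2.09, SE 0.09). HERC6 and HERC5, ligases of the ISG15 and ubiquitin systems, rose by 2.18 and 1.44, SP110 by 1.80, TRIM25, which activates RIG-I, by 1.43 and TRIM21 by 1.28. ISG15 itself, whose promoter carries 2 overlapping ISRE cores, was at 7.94, 7.87 and 7.65 in APP_DMSO and 8.02, 8.22 and 8.29 in WT_DMSO. It was lower in each run and the groups did not overlap, but its difference of -0.36 (SE 0.13) did not pass at an adjusted p of 0.078. ISG15 is represented by 1 probe set. Among 7 guanylate-binding proteins only GBP4 was called, at 8.03, 7.7 and 8.57 against 5.36, 4.89 and 4.96, a rise of 3.03 (SE 0.17). The other 6 had both group means under 6.

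The presentation of peptides on MHC class I was the second arm of the response, with 11 of 20 genes higher. TAP1, a subunit of the transporter that carries peptides into the endoplasmic reticulum, was at 8.11, 9.22 and 9.13 against 5.65, 5.73 and 5.77, a rise of 3.11 (SE 0.23). PSMB9 and PSMB8, catalytic subunits of the immunoproteasome, rose by 2.78 and 2.00, whereas PSMB10, the remaining subunit of that kind, was at 10.41 to 10.49 over the 6 arrays and was not called (0.03). NLRC5, the transactivator of class I genes, rose by 1.59, HLA-B by 1.25, HLA-C by 1.11, TAP2 by 0.83 and the light chain B2M by 0.32. HLA genes are near copies of each other and their probe sets may share signal, so that single members are uncertain. None of 11 genes of MHC class II, including its transactivator CIITA (0.02), was called.

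The signalling genes upstream changed less. Of 19 receptors, kinases, STATs and IRFs measured, 6 rose. IRF9, the DNA-binding partner of the STATs, was at 11.24, 11.48 and 11.22 against 9.96, 10.04 and 9.78, a rise of 1.39 (SE 0.10). IRF7 and IRF1, transcription factors that are themselves induced by interferon, rose by 1.11 and 1.04, and the feedback inhibitor SOCS3 by 0.90. The receptor chains IFNAR1 (0.17), IFNAR2 (0.06) and IFNGR1 (0.03) and the kinases JAK1 (-0.07), JAK2 (0.30) and TYK2 (-0.16) were not called. Among 30 chemokines, cytokines and targets of NF-kappaB, 7 rose (23.3%, against 10.2% of all genes) and 1 fell (3.33%, against 7.14%). Of the rest 14 were dim in both groups. CCL2, which attracts monocytes, was at 11.01, 11.43 and 11.82 against 8.44, 8.54 and 7.52, a rise of 3.25 (SE 0.26). CXCL12 rose by 1.01, CXCL16 and VCAM1 by 0.75 each and ICAM1 by 0.64. CXCL10 (0.27), a classical interferon target, CXCL8 (-0.09), IL6 (-0.14) and NFKBIA (0.21) did not pass.

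**Figure D2:**
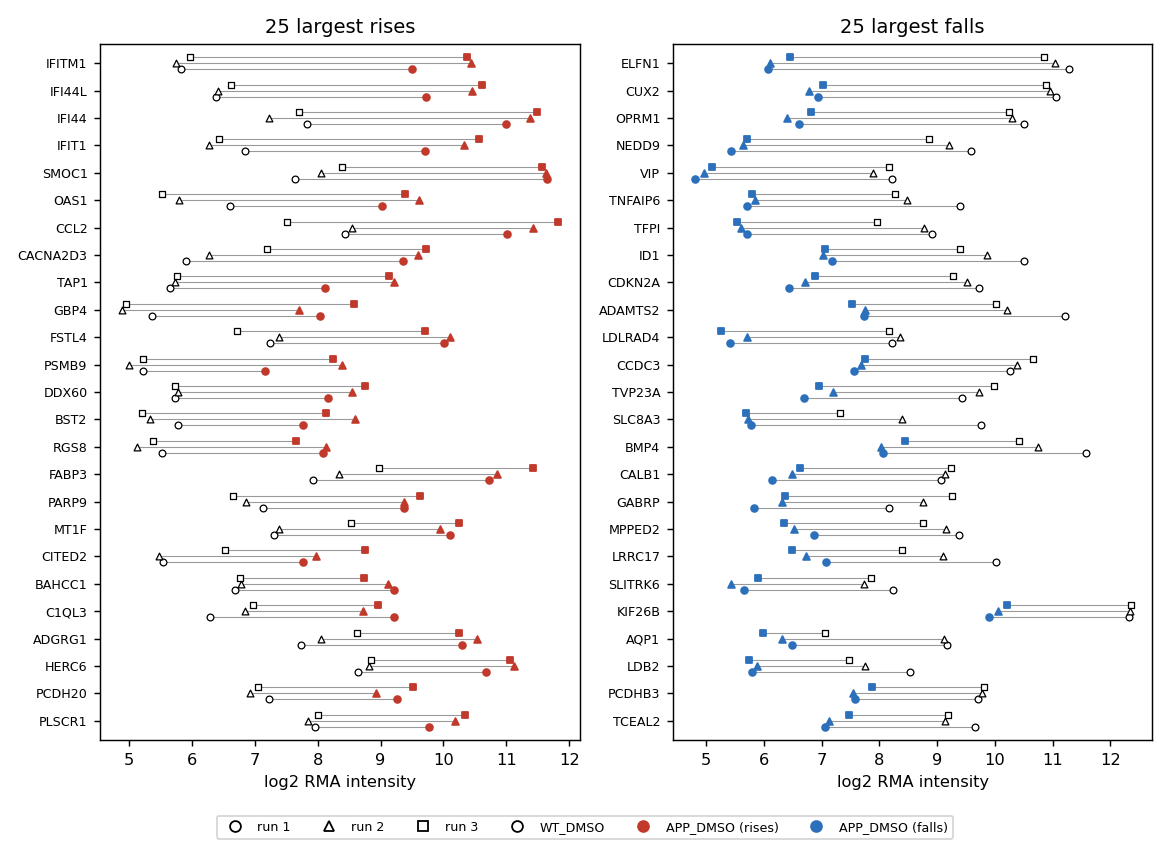
Log2 RMA intensities of the 25 genes with the largest rises (left) and the 25 with the largest falls (right) among called genes with no overlap between the groups; open symbols are WT_DMSO, filled symbols APP_DMSO, marker shapes are the runs, and a line joins the arrays of 1 run. IFITM1 moves from 5.83, 5.75 and 5.97 to 9.5, 10.44 and 10.37, and ELFN1 from 11.29, 11.04 and 10.85 to 6.07, 6.1 and 6.45.

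The BMP pathway moved the other way. Of 34 genes of BMP and TGF-beta signalling, 14 fell (41.2%, against 7.14% of all genes) and 4 rose, with 10 and 1 in the fit without the run block, and the median was -0.16. The rises numbered 2 without WT_DMSO of run 1 or of run 3. The ligand BMP4 was at 8.06, 8.02 and 8.44 in APP_DMSO and at 11.57, 10.75 and 10.41 in WT_DMSO, a difference of -2.73 (SE 0.25) that was wider in the first run (-3.51) than in the third (-1.97). ID1, a helix-loop-helix protein that BMP induces directly, was at 7.18, 7.03 and 7.06 against 10.5, 9.86 and 9.39, a difference of -2.83 (SE 0.14). ID3 and ID2 fell by 1.06 and 0.96, while ID4 (0.30) did not pass. Inhibitors induced by the pathway were lower as well: SMAD6 fell by 1.70, the decoy receptor BAMBI by 1.73 and SMAD7 by 0.79. INHBA, a subunit of activin, fell by 1.13, and the transducers SMAD9, SMAD5 and SMAD3 fell by 0.56, 0.32 and 0.24, but SMAD1 rose by 0.47. TGFB3 was the largest rise, at 9.32, 9.31 and 9.17 against 7.24, 7.57 and 7.64 (1.78, SE 0.11). The extracellular antagonists NOG, CHRD and GREM1, at -0.18, -0.14 and -0.20, were not called, and FST fell by 0.61.

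Other developmental pathways were mixed. In the Notch list of 25 genes, 8 fell (32.0%, against 7.14% of all genes) and 3 rose (12.0%, against 10.2%). NOTCH3 fell by 0.69 and the target genes NRARP and HES1 by 0.72 and 0.50. The ligands DLL3 and JAG1 rose by 0.55 and 0.48. Of 36 WNT pathway genes, 7 rose (19.4%, against 10.2% of all genes) and 6 fell (16.7%, against 7.14%). The receptor FZD7 rose by 1.27 and the secreted inhibitor DKK1 fell by 1.21 and LEF1, a transcription factor of the pathway, by 0.92. The rises of that list moved with single arrays: 1 was left without APP_DMSO of run 2, 2 without WT_DMSO of run 1, 3 without APP_DMSO of run 3 or WT_DMSO of run 2, and 6 without either of the other two. Of 32 genes of retinoic acid binding and response, 11 fell and 2 rose; the rises numbered 1 without the run block or without the run 1 or run 2 array of either line. CRABP2, which carries retinoic acid to its receptor, was at 13.18, 13.35 and 13.26 against 13.82, 13.94 and 13.91 (-0.63, SE 0.05); TGM2 fell by 0.84 and the retinol transporter gene STRA6 by 0.73. NEDD9, a scaffold of focal adhesions, was at 5.42, 5.63 and 5.7 against 9.58, 9.2 and 8.85, a difference of -3.63 (SE 0.16), down to near background. The strongly induced targets CYP26A1 (0.02), at 12.2 to 12.89 in all 6 arrays, and RARB (-0.07) were not called. GFRA2, the receptor of neurturin, fell by 1.81 and NTRK2, the receptor of BDNF, by 0.76.

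Of 26 transcription factors of the noradrenergic core, which include the markers above, 6 rose (23.1%) and 9 fell (34.6%), and 4 and 6 without the run block. TBX3, a repressor of the T-box family, was at 9.68, 9.67 and 9.51 against 11.49, 11.57 and 11.32, a difference of -1.84 with a small error (SE 0.05, adjusted p = 9.6e-13). Its relative TBX2 fell by 0.77, LMO1 by 0.78 and HAND1 by 0.64. INSM1, a zinc finger protein of neuroendocrine precursors, was at 9.56, 9.51 and 9.59 against 7.13, 8.05 and 8.35, a rise of 1.71 (SE 0.18), and MYCN rose by 0.58. Among 14 genes of catecholamine metabolism, the vesicular transporter SLC18A2 rose by 1.41 and MAOB and MAOA, which break down amines, fell by 0.91 and 0.69. TH, the rate-limiting enzyme, was at 8.16, 8.05 and 8.04 in APP_DMSO and 9.61, 9.29 and 7.91 in WT_DMSO; the groups overlapped in the third run and the difference of -0.85 did not pass (adjusted p = 0.11). Of 26 genes of the mesenchymal neuroblastoma state 7 fell, such as SNAI2 (-1.15), CCN1 (-1.08), SOX9 (-0.60) and VIM (-0.36), and the 1 that rose was IRF1, which is also an interferon gene.

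Among genes of synapses the largest changes were falls, but more adhesion genes rose than fell under vehicle. ELFN1, a postsynaptic protein that recruits metabotropic glutamate receptors across the synapse, had the largest change of all genes, -4.85 (SE 0.16, adjusted p = 2.9e-12), at 6.07, 6.1 and 6.45 against 11.29, 11.04 and 10.85. SLITRK6, another synapse organiser, fell by 2.29. Of the 51 genes of this list 16 rose (31.4%) and 7 fell. Without the run block 10 rose and 5 fell, and without APP_DMSO of run 1 the falls numbered 4. Under AG494 6 of the 51 were higher between the lines and 9 lower, and under NOSCA 11 and 7. The AG494 interaction passed for 6. NTNG1, or netrin-G1, was at 7.93, 7.62 and 7.92 against 5.89, 5.76 and 6.75, a rise of 1.68 (SE 0.17); CADM3 rose by 1.41, CNTNAP2 by 1.32 and CBLN2, a secreted synapse organiser, by 1.2. Of 44 genes of synaptic vesicles and release, 10 rose and 6 fell. The falls were larger: SV2C, a vesicle protein, fell by 2.09 and the complexins CPLX2 and CPLX1 by 1.32 and 1.25, while the calcium sensors DOC2B and SYT7 rose by 1.10 and 1.07. Of 41 neurofilament, tau and microtubule genes 11 rose, among them GAP43 (0.60) and MAPT, which encodes tau (0.43), and 3 fell, NEFM by 0.77, NEFL by 0.47 and ELAVL4 by 0.41. That count of rises was 3 without the run block.

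Of 48 glutamate, GABA, glycine and acetylcholine receptor genes, 11 fell (22.9%, against 7.14% of all genes) and 3 rose, with a median of -0.01 and 20 of the rest dim in both groups. The falls numbered 7 without the run block, without APP_DMSO of run 1 or 2 and without WT_DMSO of run 3. GRM8, a presynaptic metabotropic glutamate receptor, was at 5.44, 5.36 and 5.18 against 7.27, 6.91 and 7.27 (-1.82, SE 0.18), and its relative GRM7 fell by 0.99. The kainate receptor subunits GRIK4 and GRIK5 fell by 1.74 and 0.88, and GABBR2, a subunit of the GABA-B receptor, rose by 0.97. In the 48 genes of monoamine, opioid, peptide and purine receptors 6 rose and 8 fell; the falls numbered 4 without the run block and 5 without WT_DMSO of run 1 or of run 3. OPRM1, the mu opioid receptor, was at 6.61, 6.39 and 6.82 against 10.5, 10.29 and 10.25, a difference of -3.74 (SE 0.17), while OPRD1, the delta receptor, rose by 0.73. HTR3A, the channel-forming serotonin receptor, rose by 2.03 and the somatostatin receptor SSTR2 by 1.65; NPY2R fell by 0.99. Neuropeptide and granin genes were divided evenly, with 7 of 30 higher and 7 lower. VIP was at 4.8, 4.96 and 5.1 against 8.22, 7.89 and 8.16, a difference of -3.14 (SE 0.18), down to background. CARTPT fell by 2.03, from 9.24, 8.68 and 6.82, a wide spread in wild-type cells, to 6.36, 6.15 and 6.13. NPPC, which encodes C-type natriuretic peptide, rose by 1.2 and NPY by 0.97.

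Ion channels showed a few large rises. CACNA2D3, an auxiliary subunit of voltage-gated calcium channels, was at 9.36, 9.6 and 9.73 against 5.91, 6.27 and 7.19, a rise of 3.11 (SE 0.19). It led a list of 33 calcium and sodium channel genes in which 7 rose and 2 fell, the falls numbering 1 without the run block, without APP_DMSO of run 1 or 2 and without WT_DMSO of run 1; SCN9A, the sodium channel Nav1.7, rose by 1.35. Of 58 potassium channel genes 8 rose (13.8%) and 10 fell (17.2%), against 10.2% and 7.14% of all genes. Without the run block 6 rose and 6 fell. KCNJ2, an inward rectifier, rose by 2.03 and KCNH7 by 1.61, and the falls were at most 0.84 (KCNK10). SLC8A3, a sodium-calcium exchanger, was at 5.78, 5.73 and 5.68 against 9.75, 8.39 and 7.32. All 3 wild-type arrays were above the mutated ones but far apart, and the difference was -2.75 (SE 0.33).

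Guidance genes changed on both sides of 1 ligand-receptor system. Slit proteins are secreted repellents that act through Robo receptors, and all 3 Slit genes fell: SLIT2 was at 8.71, 8.73 and 8.89 against 10.7, 10.53 and 10.39 (-1.76, SE 0.10), and SLIT1 and SLIT3 fell by 1.25 and 0.51. ROBO2 was at 8.92, 8.72 and 9.25 against 7.35, 6.91 and 6.7, a rise of 1.98 (SE 0.16), and ROBO1 (0.18) did not pass. For semaphorins, the ligand SEMA3A rose by 1.49 and its receptors NRP1 and NRP2 by 1.53 and 1.48, while SEMA5A and SEMA3C fell by 1.28 and 0.72. UNC5B, a netrin receptor, and EPHA6, an ephrin receptor, fell by 1.38 and 1.39. In the whole list of 61 genes 13 rose and 12 fell, and 8 and 7 without the run block. Of 55 clustered protocadherin genes, adhesion proteins that tell neurites apart, 9 rose and 4 fell; PCDHB3 was at 7.58, 7.54 and 7.87 against 9.7, 9.77 and 9.81 (-2.09, SE 0.10), PCDHB16 and PCDHB14 fell by 1.76 and 1.08 and PCDHB2 rose by 0.93. The members of that cluster are near copies and single calls are uncertain. In a list of 27 markers of other neuron types 3 rose and 3 fell (11.1% each, against 10.2% and 7.14% of all genes). Their median was -0.03. CUX2, a homeobox gene of upper cortical layers, fell from 11.05, 10.96 and 10.89 to 6.94, 6.78 and 7.03 (-4.05, SE 0.13). CALB1, the calcium buffer calbindin, fell from 9.06, 9.13 and 9.23 to 6.14, 6.49 and 6.62 (-2.72, SE 0.08). NEUROG2, a proneural factor, rose by 1.27.

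**Figure D3:**
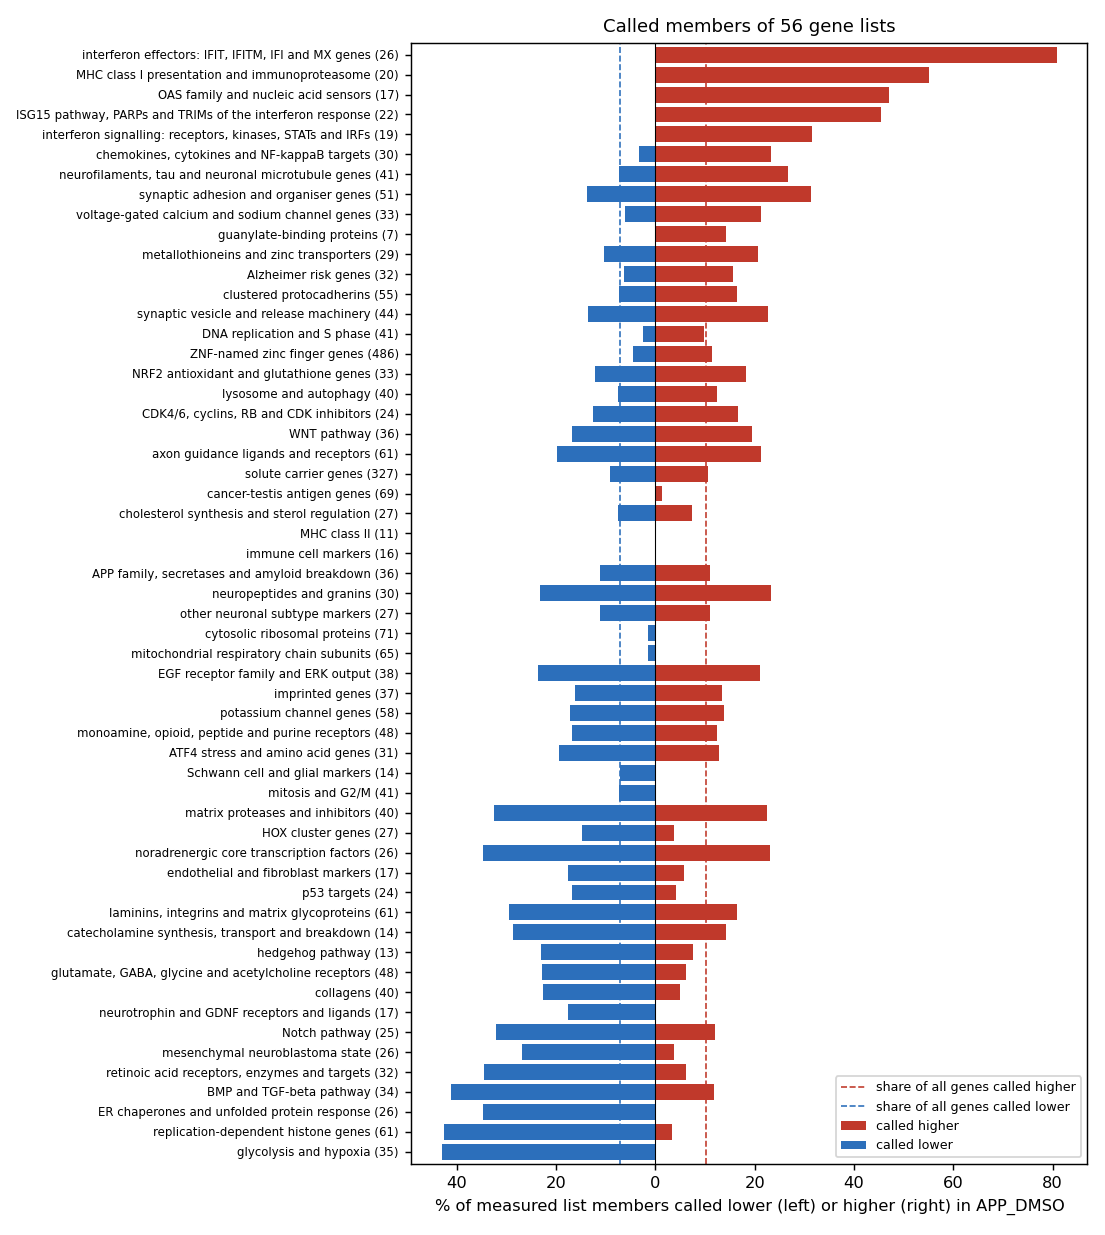
Share of the measured members of 56 gene lists called lower (bars to the left) or higher (bars to the right) in APP_DMSO, in percent, with the number measured in brackets; dashed lines give the shares of all genes, 7.14% lower and 10.2% higher. Lists are sorted by the share higher minus the share lower: interferon effectors and MHC class I presentation stand at the top, with no member lower, and glycolysis and hypoxia (42.9% lower) at the bottom.

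Among matrix genes both falls and rises were seen. Of 40 collagen genes 9 fell (22.5%, against 7.14% of all genes) and 2 rose (5.0%, against 10.2%), and 7 and 2 without the run block. COL4A1, a chain of the basement membrane collagen, was at 8.27, 8.53 and 8.44 against 10.71, 10.52 and 10.28 (-2.09, SE 0.16), and COL4A2, which encodes its partner chain and is transcribed from the same promoter region in the opposite direction, fell by 1.45. Of 61 laminin, integrin and matrix glycoprotein genes 18 fell (29.5%) and 10 rose (16.4%), and 12 and 10 without the run block. The brain proteoglycans NCAN, VCAN and BCAN fell by 1.14, 0.90 and 0.88, and LOX, which cross-links collagen, by 1.40. SMOC1, a matricellular protein that binds BMPs, went the other way, at 11.64, 11.63 and 11.57 against 7.64, 8.05 and 8.39, a rise of 3.58 (SE 0.24), whereas its relative SMOC2 fell by 1.16. The laminin receptor ITGA6 rose by 1.27. Of 40 matrix proteases and inhibitors 13 fell and 9 rose (10 and 3 without the run block). ADAMTS2, which trims procollagen, was at 7.74, 7.75 and 7.53 against 11.21, 10.2 and 10.02 (-2.80, SE 0.22), ADAM12 fell by 1.38, and the largest rise was that of MMP15 (0.86). TNFAIP6, a hyaluronan-binding protein, and TFPI, an inhibitor of coagulation, each fell by 2.93 to a level between 5.54 and 5.84.

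Genes of glycolysis and of the response to low oxygen were lower, but by an amount that varied with the run. Of 35 such genes 15 fell (42.9%) and none rose, and the median was -0.20; by run it was -0.30, -0.21 and -0.06. VEGFA, an angiogenic factor, was at 8.96, 8.88 and 9.33 in APP_DMSO and at 11.59, 11.26 and 9.74 in WT_DMSO, and ALDOC, an aldolase, at 9.05, 9.04 and 8.79 against 11.0, 10.89 and 9.36. In both cases the mutated cells were alike in the 3 runs, and the third wild-type array lay much closer to them than the other 2. The differences of VEGFA (-1.81, SE 0.33) and ALDOC (-1.46, SE 0.26) passed; HK2 (-0.87), whose arrays overlapped between the groups, and PDK1 (-0.73) were likewise closest between the lines in the last run, and PFKP fell by 1.04. The mean level of the list was 10.57 to 10.6 in APP_DMSO and 10.62 to 11.16 in WT_DMSO. The count of falls was 8 without the run block, 8 without WT_DMSO of run 1 and 20 without WT_DMSO of run 3. Only 6 of these genes were lower between the lines under AG494 and 3 under NOSCA, with 2 higher in each.

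Genes of endoplasmic reticulum chaperones and the unfolded protein response fell slightly in 9 of 26 cases, with none higher and a median of -0.14; HERPUD1 fell by 0.31 and XBP1 by 0.37, and HSPA5 (-0.17) did not pass. This count was 3 without the run block, 4 without WT_DMSO of run 1 and 5 without APP_DMSO of run 1 or 2 or WT_DMSO of run 2. Under AG494 none of these genes was lower between the lines and 5 were higher. Replication-dependent histone genes were lower in 26 of 61 cases and higher in 2, with a median of -0.19, and in 14 and 2 without the run block; 16 to 19 were lower with single arrays omitted, 16 of them without APP_DMSO of run 2 or 3 or WT_DMSO of run 1 or 3. These histone genes are near copies, so that single members are uncertain. Few cell cycle genes were called. Of 41 mitosis genes 3 fell and none rose, and of 41 genes of DNA replication 4 rose and 1 fell. The rises numbered 2 without the run block, without APP_DMSO of run 2 and without WT_DMSO of run 1 or 2. The mitosis genes shifted slightly as a set, with 36 of 41 below 0, against 7965 of all 18132 genes. Their median was -0.13, and by run -0.19, -0.12 and -0.05. Leaving out APP_DMSO of run 3 raised the falls among mitosis genes to 8, leaving out each of the other arrays gave 1 or 2, centring gave 10, and the fit without the run block called none. Mitochondrial respiratory chain genes (1 of 65 called), cytosolic ribosomal proteins (1 of 71) and cancer-testis genes (1 of 69) were below the background share. Of the cancer-testis genes, 46 were uncalled with both group means under a log2 level of 6, where a difference can be understated.

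Of 24 genes of cyclins, CDK4 and CDK6, RB and the CDK inhibitors, 4 rose and 3 fell; the rises numbered 1 without the run block and 2 without APP_DMSO of run 1. CDKN2A, which encodes p16, an inhibitor of CDK4 and CDK6, and in another frame ARF, was at 6.44, 6.71 and 6.89 against 9.73, 9.51 and 9.28, a difference of -2.82 (SE 0.22, adjusted p = 7.1e-08). Its 3 probe sets differed by -2.82, -0.75 and -0.36. CDKN2B, its neighbour on chromosome 9, did not pass (-0.12). CDKN1C, or p57, fell by 1.35, with a wild-type range of 9.44 to 11.53, and E2F1 rose by 0.54. CDK4 (0.07), CCND1 (-0.10) and RB1 (-0.05) were not called. Of 38 genes of EGF receptor signalling and its ERK output, 8 rose and 9 fell (5 and 6 without the run block): PHLDA1 was at 11.85, 11.7 and 11.94 against 8.97, 9.82 and 10.35 (2.12, SE 0.22), DUSP4 rose by 0.99 and the neuregulin receptor ERBB4 by 0.95, whereas MYC fell by 1.48, DUSP2 by 1.05 and the immediate early gene EGR1 by 0.90. EGFR itself (0.03) was not called. Metallothioneins, which bind zinc and copper, and zinc transporters gave 6 rises and 3 falls among 29 genes, and 3 and 2 without the run block. MT1F was at 10.11, 9.94 and 10.25 against 7.31, 7.38 and 8.53 (2.36, SE 0.21), SLC30A1, which exports zinc, rose by 1.40 and MT1X and MT2A by 0.74 and 0.65; metallothionein genes are near copies as well, and MT1E (-0.01) and MT1G (-0.20) were not called.

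The same pair of lines was also compared under AG494 and under NOSCA, with each difference taken from that treatment's own 6 arrays. All were estimated in 1 fit of the 21 arrays, which share the run terms and the estimate of spread, so that their calls are not independent. Under AG494 3068 genes were called (16.9%; 8.45% higher and 8.47% lower in the mutated line) and under NOSCA 2680 (14.8%; 7.99% higher and 6.79% lower). Of the 3151 vehicle calls, 1586 were called in the same direction under AG494 (50.3% of the vehicle calls and 51.7% of the AG494 calls) and 23 in the opposite one; under NOSCA the numbers were 1643 (52.1% and 61.3%) and 9. In all 3 settings 1231 genes were called the same way, 631 higher and 600 lower, which is 39.1% of the vehicle calls. Of the 318 genes called with at least a 2-fold difference under vehicle, 294 were also called under AG494 and 304 under NOSCA. IFITM1 was at 4.73 and 3.91 under AG494 and NOSCA, ELFN1 at -3.89 and -4.31, CUX2 at -3.73 and -4.12, BMP4 at -3.09 and -2.90, and OPRM1 at -3.35 and -3.13. Among the 50 largest changes, MT1F did not pass under AG494 (0.51) and AQP1, a water channel, did not pass under NOSCA (-0.85); the other 49 were called in each. The 111 interferon and MHC class I genes gave 74 rises and no falls under AG494 and 59 rises and 2 falls under NOSCA.

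The difference between the lines was itself tested against treatment with an interaction term, which shares the vehicle arrays with the comparison above. For AG494 229 genes passed (1.26%), 0.524% of all genes with a more positive and 0.739% with a more negative difference. Without the run block 7 genes passed. Of the 229, 146 were among the vehicle calls, and 113 of those 146 had a smaller difference under AG494. Choosing genes by their vehicle call favours that outcome, because the interaction uses the same vehicle arrays. No conclusion is drawn from it. EBF3, a transcription factor of the early B-cell factor family, went from 2.03 to 0.35 (interaction -1.68, adjusted p = 1e-05). RGS8, a regulator of G protein signalling, went from 2.61 to 0.77 (interaction -1.84, adjusted p = 0.0001) and NPPC from 1.2 to 0.12. INSM1 went from 1.71 to -0.13 and BAMBI from -1.73 to -0.76. In the interferon lists the interaction passed for 11 of 111 genes. The difference was wider under AG494 for IFI27 (2.00 to 3.62), NLRC5 (1.59 to 3.08) and OASL (1.26 to 2.69). It was also wider for IFIT3 (1.36 to 2.67) and HLA-B (1.25 to 2.56). Genes of mitosis, of which 3 were called lower between the lines under vehicle, were lower in 40 of 41 cases under AG494 and 12 under NOSCA, and the AG494 interaction passed for 7. For NOSCA 3 genes (0.0165%), all with a more positive difference, passed with the block and none without it, while 1957 had an unadjusted p under 0.05 with limma; they were H2AC25 (-1.14 to 0.38), H2AC20 (-0.39 to 0.42) and SH3D21.

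**Figure D4:**
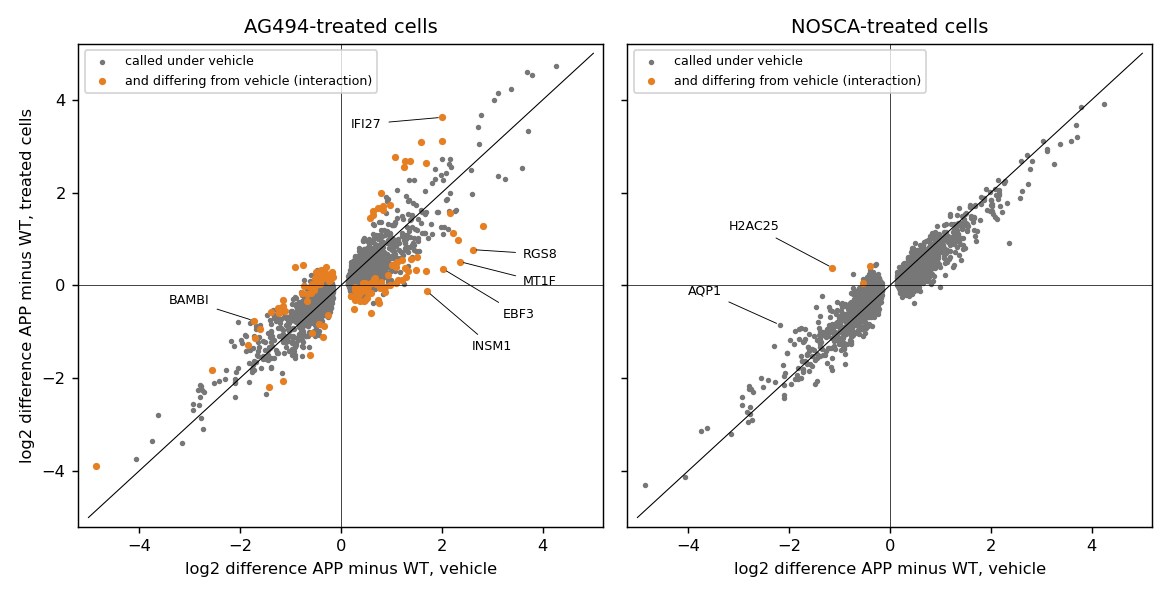
Log2 differences between the lines under vehicle (x) and under AG494 (left) or NOSCA (right, y) for the 3151 genes called under vehicle; the diagonal marks equal differences and orange points are those whose interaction with the treatment passed. Large differences lie along the diagonal in both plots, with RGS8 (2.61 to 0.77), EBF3 (2.03 to 0.35) and IFI27 (2.00 to 3.62) off it under AG494.

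Some of the genes that changed lie next to each other. There were 12 stretches of at least 4 neighbouring tested genes called in the same direction, 8 higher and 4 lower, with 49 genes. On chromosome 6 TAP2, PSMB8, TAP1 and PSMB9 of the MHC region were all higher. Chromosome 13 held the longest stretch, with MYO16, IRS2, COL4A1, COL4A2 and RAB20 lower, and chromosome 2 one with FAP, IFIH1, GCA and KCNH7 higher. On chromosome 3 CACNA2D3, LRTM1, WNT5A and ERC2 were higher, and ITPR1, BHLHE40, EDEM1 and GRM7 lower; on chromosome 15 ISLR2, ISLR, STRA6 and CCDC33 were lower. Over whole chromosomes the share of genes called higher ran from 5.75% (chromosome 21, which carries APP) to 13.0% (chromosome 14) and that called lower from 4.35% (chromosome 17) to 10.1% (chromosome 4), and the median difference from -0.005 to 0.042.

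Most called genes with several probe sets had all of them on the same side, but only a minority had all of them called. Of 2285 called genes with more than 1 probe set, 1946 had all of them on the same side and 867 had all of them called the same way. Probe sets of 15 genes were called in opposite directions, among them NEURL1, DST, MBD2, GPM6B, CELF2, ULK2 and DNAJC10. The plainest case was RAP1A, a small GTPase. One of its 4 probe sets, 11762533_a_at, lay between 12.9 and 13.0 in all 9 arrays of the mutated line and between 6.77 and 7.67 in all 12 wild-type arrays. Its difference under vehicle, 5.6 (SE 0.13, adjusted p = 4.1e-14 over all probe sets), was larger than that of any other of 44988 probe sets. The other 3 RAP1A probe sets differed by -0.17, -0.05 and -0.18, and the last of these, which was called lower, represents the gene in the counts above.

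**Figure D5:**
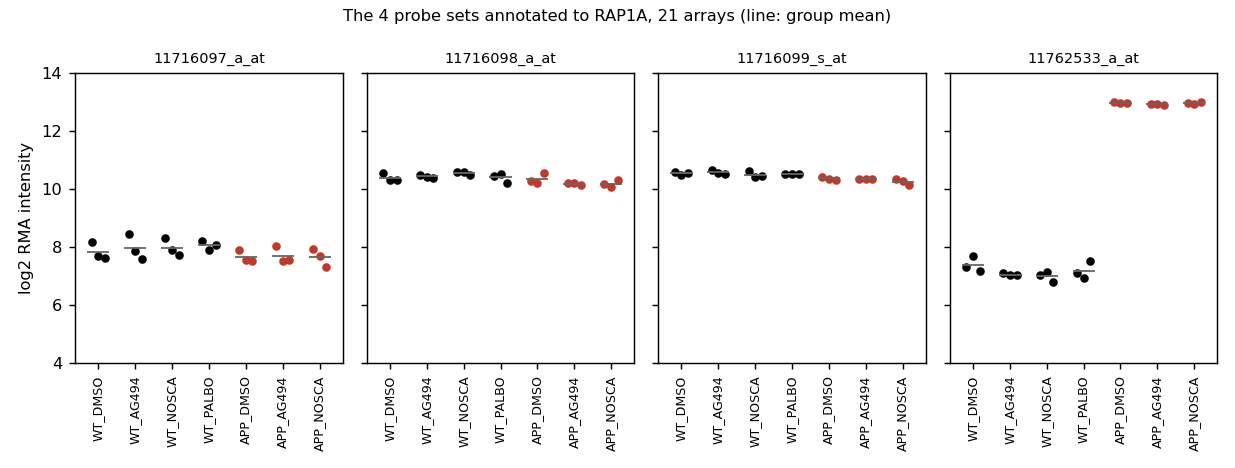
Log2 RMA intensity of the 4 probe sets annotated to RAP1A in the 21 arrays, by group; points are arrays in the order of the runs, red for the mutated line and black for the wild type, and lines are group means. The probe set 11762533_a_at separates the lines in every treatment (12.9 to 13.0 against 6.77 to 7.67), and the other 3 do not show such a gap.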

How the data were processed

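RNA was amplified from 25 ng of total RNA and hybridised to PrimeView arrays, per the labels' protocols. Deposited were log2 intensities; RMA and the affy package are named for them, per the submitters' processing notes; version and annotation build are not given in the sources used here. The table held 49372 probe sets, 79 of them controls; 44988 had 1 gene symbol in the platform annotation, 1832 several and 2473 none, and 44961 of the first matched RefSeq by Entrez identifier. Among probe sets of 1 gene the brightest on average was kept, which left 18132 genes.

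Differences were fitted with limma 3.58.1 (R 4.3.3) on all 21 arrays, with 7 groups and the run as a block (12 residual and 4.64 prior degrees of freedom). p-values are two-sided and were adjusted by Benjamini-Hochberg over all genes. The run comes from the title numbers, and the pairing was checked: deviations from group means correlated at 0.226 to 0.685 in 63 same-run pairs and at -0.529 to 0.089 in 126 others. The labels call the 3 experiments independent but do not say that a run is a day or a culture. The scripts were tested on simulated data.

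Members and gene lists were chosen with earlier results of these data known. Named are the 25 largest rises and falls among called genes without overlap between groups; APP; up to 6 called members per list and direction; members that did not pass, where they complete a family; the 5 lowest p of each interaction; genes going from below the 25th percentile to above the median; up to 8 genes with opposed probe sets; and up to 6 stretches of neighbours. Promoters are from RefSeq, GRCh38.p14. Alternatives covered the block, the arrays fitted, probe set choice, dim genes, scaling, the prior, array weights, a minimum fold and arrays left out.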

Additional observations from a re-analysis of the deposited data

Results flagged for a closer look

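The difference between the lines changed with AG494 for 229 genes by the interaction test. The lowest p-values among them were those of EBF3, whose difference was lower by 1.68 under AG494 than under vehicle (interaction -1.68), RGS8 (-1.84), NPPC (-1.09), ZIK1, a zinc finger gene (-0.89, from 0.19 to -0.70), and KDELR3, a receptor that returns proteins to the endoplasmic reticulum (1.2, from -0.76 to 0.44). With NOSCA the interaction passed for 3 genes: the histone genes H2AC25 (1.52) and H2AC20 (0.81), and SH3D21 (0.59, from -0.53 to 0.06). These interaction values share the vehicle arrays with each other, and without the run block 7 and 0 genes passed; 2670 and 1957 genes had an unadjusted p under 0.05 with limma and the block.

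Probe sets that the annotation gives no gene or several genes were left out of the comparison. Of 4305 such probe sets 451 were called (10.5%), 295 higher and 156 lower, with a largest rise of 2.71 and a largest fall of 3.91; 3 rose and 5 fell by at least 4-fold. The RAP1A probe set 11762533_a_at, which does not represent its gene in the counts, differed by 5.6.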

How the results depend on the processing

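The count of 3151 genes was 1677 with no replicate block, 1270 with the replicate block on only the 6 arrays, 887 on only the 6 arrays with no replicate block, 834 with a fold change of at least 1.5, and 7434 when all probe sets were tested singly. Without run 1, 2 or 3 in all groups it was 1712, 1470 and 2781, and it was 2354 to 2947 when 1 of the 6 arrays was left out; both kinds of fit have fewer arrays. The other settings gave 3103 to 4032. With no replicate block, calls between the lines fell to 1635 under AG494 and 1306 under NOSCA, and the interactions to 7 and 0. Of 422 named called genes none reversed under the 19 alternatives that give a value per gene, and 233, the 50 largest changes among them, kept their call in all; 93 lost it with no replicate block and 162 on only the 6 arrays with no replicate block. Arrays of 3 a group limit the precision, dim genes have compressed differences, and the split of small changes into higher and lower depends on the scaling.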

Other observations

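Genes that went from dim in 1 line to above the median of all genes in the other were few. With dim set at the 25th percentile of all gene means in the group, 5.95, and the median at 8.45, DDX60, IFITM1 and TAP1 rose in this way, and NEDD9, SLC8A3, TFPI and TNFAIP6 fell.

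Genes named ZNF, most of them zinc finger repressors, rose in 56 of 486 cases and fell in 22, with a median of 0.09, against 10.2% and 7.14% of all genes. Without the run block 24 rose and 11 fell, centring on array medians gave 38 and 31, without APP_DMSO of run 1 the falls numbered 13, and under AG494 12 were higher and 35 lower between the lines. Solute carrier genes gave 35 rises and 30 falls among 327, and 29 and 41 after centring; the rises numbered 16 without the run block and 23 without APP_DMSO of run 2. Among 31 genes of the ATF4 stress response and amino acid supply 4 rose and 6 fell (19.4%), the falls numbering 2 without the run block, 7 without WT_DMSO of run 3 and 3 without any other single array, with ATF3, a stress-induced transcription factor, at 1.11 and SHMT2, a mitochondrial enzyme of serine metabolism, at -0.84. In the NRF2 list of 33 antioxidant genes 6 rose and 4 fell (12.1%), the falls numbering 2 without the run block or without the run 2 array of either line and 7 without WT_DMSO of run 3: NQO1, a quinone reductase, rose by 0.97 and GPX8 by 0.96, while SLC7A11, the cystine transporter, fell by 0.71. Of 37 imprinted genes 5 rose and 6 fell, with PEG10 at 0.66 and NDN at -0.61; the rises numbered 2 without the run block and 3 without APP_DMSO of run 3 or WT_DMSO of run 1. Of 27 HOX genes 1 rose (3.7%) and 4 fell (14.8%), against 10.2% and 7.14% of all genes. The HOX falls numbered 2 without the run block or WT_DMSO of run 1. Of 24 p53 targets 1 rose (4.17%, against 10.2% of all genes), the death receptor gene FAS (0.47). Another 4 fell, against 7.14% of all genes, such as SPATA18 (-0.63) and GADD45A (-0.48). The falls (16.7%) numbered 1 without the run block, APP_DMSO of run 1 or 2 or WT_DMSO of run 1, 2 without WT_DMSO of run 2 and 6 without WT_DMSO of run 3; with single arrays left out, 1 rise was counted without the run 1 array of either line and none without any other.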
